A study of Arabidopsis thaliana with 12 samples.

Results

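CHI (AT2G43570) and AT2G43580 are adjacent genes on chromosome 2 of Arabidopsis thaliana, and both belong to the chitinase family. They were followed here as a pair, 2 of the 13286 genes that the annotation used pairs with a probe set of no other gene. Transcripts were profiled on 12 Affymetrix ATH1 arrays. Each of 4 groups had 3: plants of the mutant siz1-3 after 2 h of dehydration, siz1-3 under control conditions, the wild type Col-0 after 2 h of dehydration, and Col-0 under control conditions. The mutant siz1-3 carries an insertion in SIZ1, the gene of a SUMO E3 ligase that modifies many nuclear proteins. All plants were 3 weeks old per the labels, with the age of 1 array, Col-0 control replicate 1, written as 21 days. No tissue is named there, nor whether replicates came from separate plants. Any p-value here therefore reflects the spread among the deposited samples, and that spread may be technical. The pair was chosen by its control levels, dehydration changes and genotype differences on these same arrays. Those values are given for both genes as a description, with no test, and the comparisons share samples with each other.

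Chitinases hydrolyse chitin, the polymer of fungal cell walls and insect cuticles, which plants themselves do not make. Many of them are secreted pathogenesis-related proteins, induced during infection together with the salicylic acid and jasmonate arms of defence, and the fragments they release from chitin are sensed at the plant cell surface by receptor kinases with LysM domains. The plant enzymes fall into glycoside hydrolase families 19 and 18 (GH19 and GH18), and CHI and AT2G43580 are in the first. Mutants of SIZ1 are known for raised salicylic acid and for defence gene expression without infection.

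As deposited, every array had a trimmed mean of 250.02 or 250.03, and median signals ran from 65.5 to 88.2. The brighter SIZ1 probe set read 81.5 to 101 in dehydrated siz1-3 and 160 to 177 in siz1-3 control plants, against 360 to 465 in dehydrated Col-0 and 286 to 450 in Col-0 control plants, so it was lower in every siz1-3 array. The dimmer of the SIZ1 probe sets had the reverse order, at 60.3 or more on every siz1-3 array and 34.2 or less on every Col-0 array. Which side of the insertion each probes was not analysed here. Both measured leaf photosynthesis markers of 9 listed, RCA and LHCB4.1, were bright on every array. Their summed signal was 11612 to 12582 in dehydrated siz1-3, 17415 to 19900 in siz1-3 control, 15761 to 16498 in dehydrated Col-0 and 20650 to 21584 in Col-0 control plants. Of 3 measured root markers of 8 listed, EXPA7 and EXPA18 averaged under 32 in every group. The summed root signal, nearly all of it from PYK10, was 474 to 515, 649 to 749, 718 to 1145 and 915 to 992 in the same order of groups. Of 5 genes on the guard cell list 3 were measured, FMA, MUTE and SPCH, which are genes of stomatal development rather than of mature guard cells. Their sums were 57.6 to 74.5, 135 to 192, 87.1 to 138 and 165 to 246. MUTE averaged under 32 in every group and SPCH in both dehydrated groups. No listed flower or seed marker had a probe set of its own in the annotation used, so none was analysed. The part of these marker differences in the results on the chitinase pair was not tested, and in bulk RNA fewer cells of a type and less RNA per cell cannot be told apart.

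CHI was high in siz1-3 whether or not the plants had been dehydrated. Its signal read 8719, 8752 and 9534 in dehydrated siz1-3 replicates 1 to 3 and 4212, 4077 and 5646 in siz1-3 control plants. In Col-0 it read 1301, 1371 and 2412 after dehydration and 163, 125 and 122 under control conditions. The 4 groups thus fell in the order dehydrated siz1-3, siz1-3 control, dehydrated Col-0 and Col-0 control, and no 2 groups overlapped. Unstressed siz1-3 plants gave more CHI signal on each array than dehydrated Col-0 plants did.

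AT2G43580 gave a different picture. It read 1065, 1257 and 1370 in dehydrated siz1-3, against 18.3, 14.7 and 9.98 in siz1-3 control plants. In Col-0 it read 128, 106 and 132 after dehydration, against 18.2, 24.3 and 12.7 under control conditions. Both dehydrated groups stood apart from each other and from the control groups, whereas the control groups of the 2 genotypes overlapped. All 6 control values lay under 32. No detection calls were used, so signals that low could be background.

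**Figure D1:**
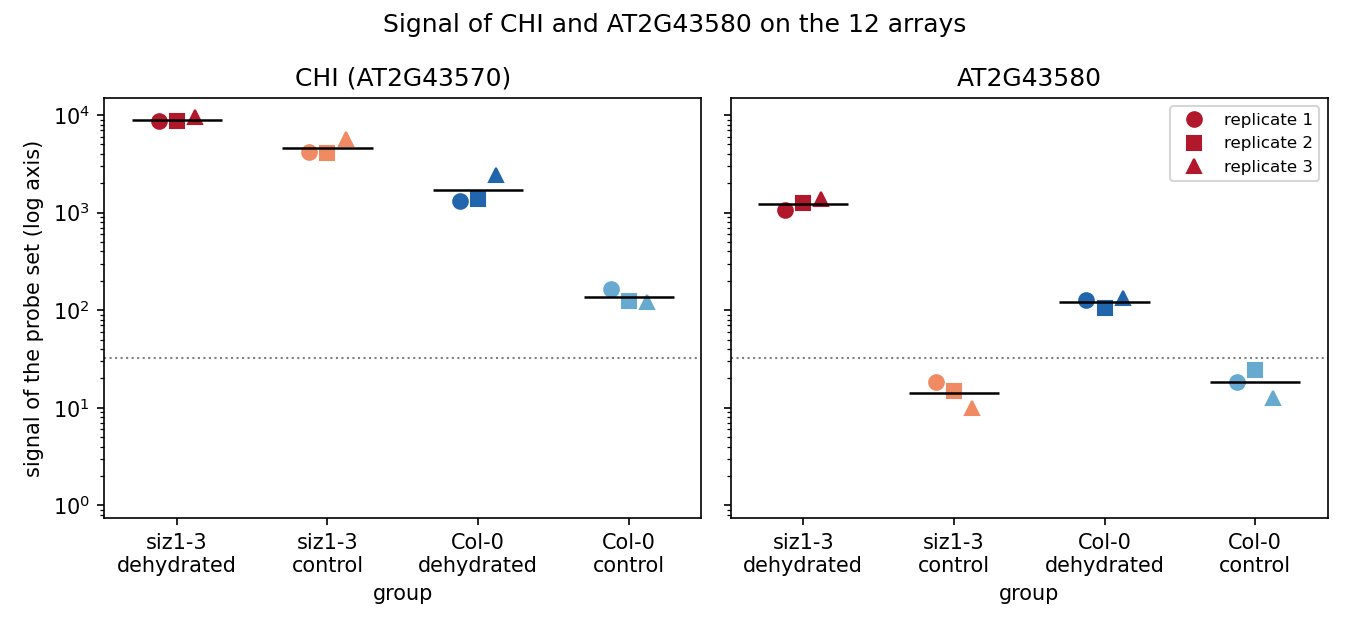
Signal of CHI (left) and AT2G43580 (right) on each of the 12 arrays, on a log axis, with the 4 groups along the horizontal axis; point shapes mark replicates 1 to 3, black bars mark group means and the dotted line marks a signal of 32. CHI is at 4077 to 5646 in siz1-3 control plants and at 122 to 163 in Col-0 control plants, while AT2G43580 is under 32 in both control groups and at 1065 to 1370 in dehydrated siz1-3.

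Under control conditions the genotypes stood apart at CHI and overlapped at its neighbour, whose signals there could be background. CHI averaged 4645 ± 870 in siz1-3 and 137 ± 23.0 in Col-0 (SD, n = 3 each), a ratio of 33.9. The log2 difference, siz1-3 minus Col-0, was 4.92 ± 0.22 (here and below the error after a log2 change is the standard error of the limma fit, and log2 values are of the signal plus a pseudocount of 16). It was the 4th most positive difference of the 22746 probe sets in that comparison. AT2G43580 averaged 14.3 ± 4.16 in siz1-3 and 18.4 ± 5.81 in Col-0 control plants, a log2 difference of -0.18 ± 0.16. The arrays of the genotypes did not overlap at CHI, with siz1-3 higher, as was the case for 15.1% of all probe sets in that comparison, while siz1-3 was lower without overlap for 17.2%.

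In siz1-3, the change with dehydration was the larger at AT2G43580. AT2G43580 averaged 1231 ± 154 in dehydrated siz1-3, against 14.3 ± 4.16 in its control plants, a ratio of 85.9 and a log2 change of 5.36 ± 0.16, which ranked 21st among the increases of all 22746 probe sets. CHI, already at 4645 ± 870 in siz1-3 control plants, averaged 9001 ± 462 in dehydrated siz1-3, a ratio of 1.94 and a log2 change of 0.97 ± 0.22 that ranked 1688th. For both genes the dehydrated arrays of siz1-3 lay above its control arrays without overlap, as they did for 18.5% of all probe sets, with the reverse for 37.3%. Because the control signal of AT2G43580 was so low, the size of its change depends on how low signals are treated. The log2 change in siz1-3 was 5.26 with all signals under 32 raised to 32, and 4.04 with a pseudocount of 64.

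Dehydrated Col-0 plants also had more of both transcripts than Col-0 control plants, although the size of the change of AT2G43580 cannot be ranked against that of CHI. CHI averaged 1695 ± 622 in dehydrated Col-0, against 137 ± 23.0 in Col-0 control plants, a ratio of 12.4 and a log2 change of 3.44 ± 0.22. The spread in the dehydrated group came from replicate 3, which read 2412 where the other arrays read 1301 and 1371. Without that array the log2 change of CHI in Col-0 was 3.16. AT2G43580 averaged 122 ± 14.4 in dehydrated Col-0 and 18.4 ± 5.81 in Col-0 control plants, a log2 change of 2.01 ± 0.16, and 1.96 without dehydrated replicate 3. With a pseudocount of 64 it was 1.18. Its Col-0 control signals, 12.7 to 24.3, could be background, so its ratio of 6.64 is a lower bound. Neither gene's groups overlapped in Col-0, as was so, with dehydrated plants higher, for 17.0% of all probe sets, while 28.5% were lower without overlap.

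After dehydration both genes stood higher in siz1-3 than in Col-0. CHI averaged 9001 ± 462 in dehydrated siz1-3 and 1695 ± 622 in dehydrated Col-0, a ratio of 5.31 and a log2 difference of 2.46 ± 0.22. AT2G43580 averaged 1231 ± 154 and 122 ± 14.4 in the same groups, a ratio of 10.1 and a log2 difference of 3.17 ± 0.16. The 2 genotypes did not overlap at either gene, which held, with siz1-3 higher, for 16.9% of all probe sets, while 27.9% were lower without overlap. These log2 differences ranked 188th for CHI and 79th for AT2G43580.

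Set side by side, the neighbours had their largest differences in different comparisons. The log2 change of AT2G43580 minus that of CHI was 4.40 ± 0.29 for dehydration of siz1-3 and -1.42 ± 0.29 for dehydration of Col-0. For siz1-3 against Col-0 it was 0.72 ± 0.29 after dehydration and -5.10 ± 0.29 under control conditions (standard errors from the 12 array-wise differences, with 8 residual degrees of freedom). The values that involve control plants rest on AT2G43580 signals that could be background, and the standard errors do not cover this. For dehydration they were 3.08 in siz1-3 and -1.91 in Col-0 with a pseudocount of 64, and 4.29 and -1.66 with signals under 32 raised to 32. A true control level of AT2G43580 below its signal would raise them, so the sign in Col-0 is not settled. The interaction value, the dehydration change in siz1-3 minus that in Col-0, was 3.35 ± 0.23 on the log2 scale for AT2G43580 and -2.47 ± 0.31 for CHI. They ranked 8th among the most positive and 13th among the most negative of 22746 probe sets, a comparison in which limma called 3.84% of probe sets higher and 4.96% lower at an adjusted p under 0.05.

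For CHI the sign of that interaction belongs to the log scale. In signal units, CHI was 4357 ± 569 higher in dehydrated than in control siz1-3 (standard error from the group SDs). In Col-0 it was 1558 ± 359 higher. The increase in siz1-3 was thus the larger by 2799 ± 673 signal units, although its ratio was the smaller. At its measured signals AT2G43580 had the same sign on both scales, with an increase of 1217 ± 89.2 signal units in siz1-3 and of 104 ± 8.94 in Col-0, a difference of 1113 ± 89.6. Its control signals could be background, so the ratio in each genotype, and with it the sign on the log2 scale, is not settled. CHI's signals reached 9534, below the highest signal of 16646 or more on every array.

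The 2 genes stand at the start of a run of 6 loci of the GH19 list on chromosome 2, which goes on with AT2G43590, AT2G43600, AT2G43610 and AT2G43620. That run is unbroken among protein-coding genes only, as the annotated RNA genes AT2G09485 and AT2G09490 lie between AT2G43610 and AT2G43620. The list holds 14 loci set from general knowledge of the family, since the gene tables used here label only some of them as chitinases. By the annotation used, all 6 loci of the run and 4 elsewhere had their own probe set. The 4 others of the list, POM1, CTL2, HCHIB and EP3, were not analysed here. The other GH19 genes were measured on the same 12 arrays as the pair, cross-hybridisation among them was not checked, and the list was drawn up with results of these arrays known. Dehydrated Col-0 replicate 3 was the highest of its group for all 6 loci of the run and for AT3G47540 and AT4G01700, but not for AT1G02360 and AT1G56680. Its lead was small at AT2G43580 (132, against 128 and 106) and AT3G47540 (646, against 541 and 641).

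Next to the pair, AT2G43590 was highest in dehydrated siz1-3, as both members were. It read 1575, 1509 and 1790 in dehydrated siz1-3, against 459, 464 and 486 in siz1-3 control plants, and rose there by a log2 change of 1.75 ± 0.31 (limma, adjusted p = 0.000484). In Col-0 it read 259, 342 and 510 after dehydration, against 134, 357 and 360 under control conditions, and the groups overlapped (log2 change 0.43 ± 0.31, adjusted p = 0.324). The genotypes differed at AT2G43590 after dehydration (2.13 ± 0.31, adjusted p = 0.000237), while the difference of 0.82 ± 0.31 in control plants did not pass (adjusted p = 0.101), though these arrays did not overlap and it passed over the upper 60% of probe sets (adjusted p = 0.043). Its interaction value of 1.32 ± 0.44 did not pass either (adjusted p = 0.0908). That value was 1.76 without Col-0 control replicate 1, the array at 134, and passed there (adjusted p = 0.00482), as it did with a pseudocount of 64 (0.034) and over the upper 60% of probe sets (0.0347).

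AT2G43620, the last gene of the run, had the same order of group means as CHI, as did AT2G43590, AT3G47540 and AT4G01700. AT2G43620 read 1380, 1344 and 1359 in dehydrated siz1-3, 444, 353 and 480 in siz1-3 control plants, 228, 259 and 480 in dehydrated Col-0 and 45.3, 47.7 and 44.1 in Col-0 control plants. Only the siz1-3 control and dehydrated Col-0 groups overlapped. AT2G43620 was higher in siz1-3 than in Col-0 under control conditions by a log2 difference of 2.83 ± 0.22 (limma, adjusted p = 1.74e-06). It rose with dehydration by 1.65 ± 0.22 in siz1-3 and by 2.38 ± 0.22 in Col-0 (adjusted p = 3.88e-05 and 2.07e-06), and its interaction value of -0.73 ± 0.31 did not pass (adjusted p = 0.173). Between these genes, AT2G43600 stayed at 0.687 to 6.73 on all 12 arrays and AT2G43610 at 36.7 to 75.3, and neither passed in any of the 5 comparisons (adjusted p from 0.432 to 0.965).

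Of the 8 measured GH19 genes other than the pair, 5 were higher and 0 lower in siz1-3 than in Col-0 after dehydration (limma, adjusted p under 0.05; the count at an unadjusted p under 0.05 was also 5 and 0). In that comparison 12.4% of all probe sets were called higher. The 5 were AT2G43590, AT2G43620, AT1G02360, AT3G47540 and AT4G01700, and the median log2 difference of the 8 was 1.82, beside -0.10 for all probe sets tested. Under control conditions 4 were higher and 0 lower (5 and 0 at an unadjusted p under 0.05), beside 8.90% of all probe sets called higher, with a median of 1.49 beside -0.03. These 4 were the same genes without AT2G43590. AT3G47540 averaged 1565 ± 180 in siz1-3 and 202 ± 26.4 in Col-0 control plants, a log2 difference of 2.86 ± 0.13 (adjusted p = 4.24e-08).

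Dehydration raised 4 of the 8 and lowered 1 in siz1-3, and raised 3 and lowered 1 in Col-0. The background was 15.3% of probe sets called higher and 31.8% lower in siz1-3, and 13.5% higher and 23.5% lower in Col-0. That split depends on the scaling: 3482 higher and 7225 lower in siz1-3 became 6699 and 4107 after subtraction of array medians, and 3081 and 5348 in Col-0 became 4993 and 3506. The medians of the 8 were 0.47 and 0.22, beside -0.16 and -0.09 for all probe sets tested. AT3G47540 averaged 6143 ± 412 in dehydrated siz1-3, against 1565 ± 180 in its control plants, and rose by 1.97 ± 0.13 (adjusted p = 1.16e-07). In Col-0 it rose by 1.52 ± 0.13 (adjusted p = 1.43e-06). AT1G02360 went against the pair and fell in both genotypes, by log2 changes of -1.12 ± 0.30 in siz1-3 and -1.17 ± 0.30 in Col-0 (adjusted p = 0.00725 and 0.00737). Those calls ended with signals under 32 raised to 32 (adjusted p = 0.0539 and 0.0605), and the siz1-3 call also after subtraction of array medians (0.0504). AT1G56680, at 25.2 or less on all arrays, did not pass in any comparison.

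**Figure D2:**
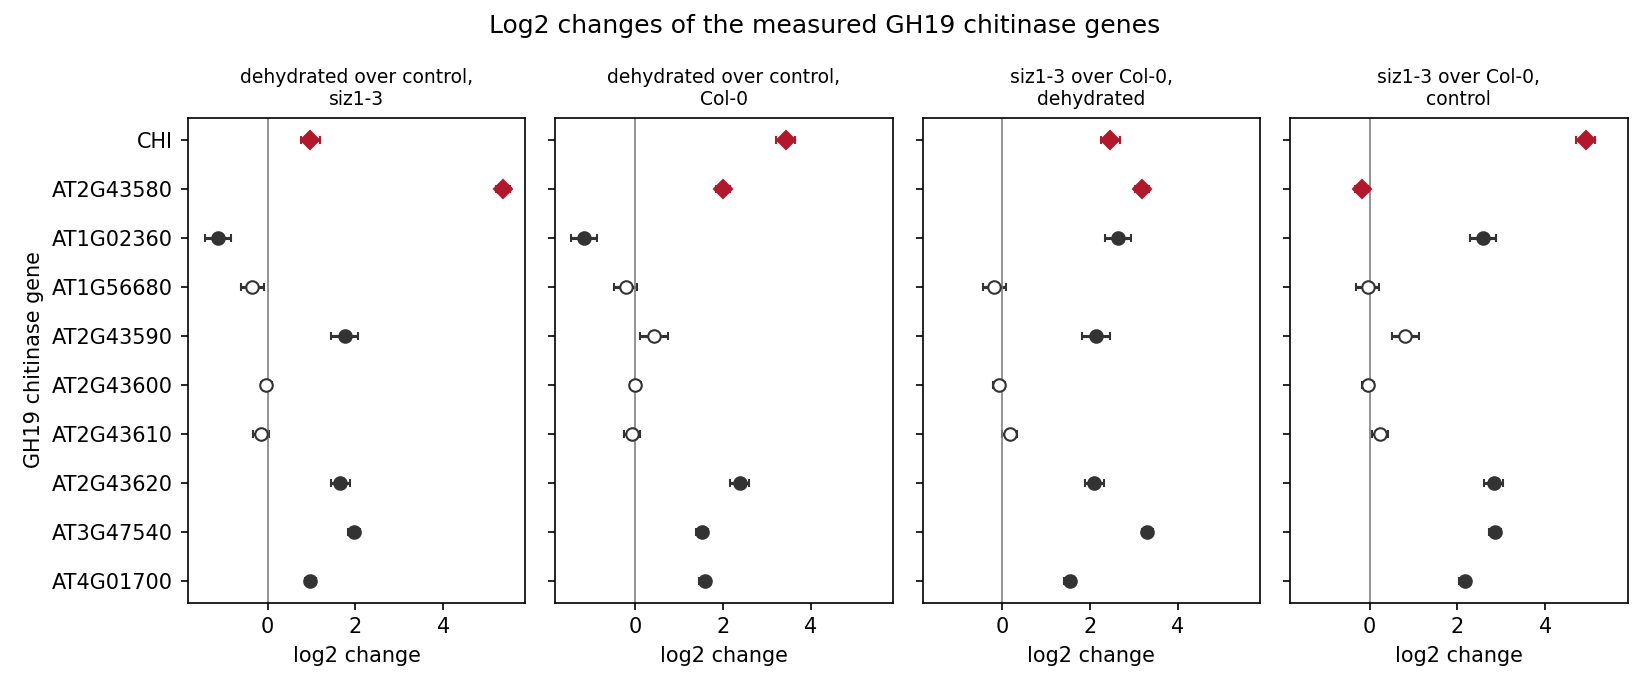
Log2 change (points) and its standard error (bars) of the 10 measured GH19 genes in 4 comparisons, 1 panel each; diamonds are CHI and AT2G43580, which were not tested, and circles are the other genes, filled where the adjusted p was under 0.05. CHI lies at 4.92 and AT2G43580 at -0.18 for siz1-3 over Col-0 in control plants, and at 0.97 and 5.36 for dehydration of siz1-3.

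None of the other GH19 genes had interaction values as far from 0 as the pair's. The pair was chosen by its changes on these same arrays, so that ranking is no test. Of the 8, 0 were called higher and 1 lower (2 and 2 at an unadjusted p under 0.05), beside 3.84% and 4.96% of all probe sets, and their median was -0.06 beside -0.08. The called gene was AT4G01700, which rose by 0.97 ± 0.13 in siz1-3 and by 1.59 ± 0.13 in Col-0 and had an interaction value of -0.62 ± 0.18 (limma, adjusted p = 0.0491, from 0.0172 to 0.135 over the alternatives). Its values were 750, 739 and 745 in dehydrated siz1-3, 364, 385 and 370 in siz1-3 control plants, 220, 225 and 299 in dehydrated Col-0 and 62.7, 75.1 and 75.2 in Col-0 control plants.

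Among the genes around the chitinase run, none was called higher in siz1-3 than in Col-0. Of the 20 annotated genes nearest to the pair, 10 on each side, 11 had their own probe set by the annotation used. Of these 11, 7 are outside the GH19 list. In siz1-3 against Col-0, 0 of the 7 were higher and 3 lower after dehydration (limma; 1 and 5 at an unadjusted p under 0.05, and 5 called lower with a pseudocount of 64), and 0 were higher and 3 lower under control conditions (0 and 3 unadjusted). The background was 12.4% of probe sets called higher and 19.1% lower after dehydration, and 8.90% and 8.49% under control conditions. The gene directly beside CHI, AT2G43560, read 1499, 1341 and 1271 in dehydrated siz1-3, 1694, 1789 and 1671 in siz1-3 control plants, 1719, 1857 and 1750 in dehydrated Col-0 and 2370, 2189 and 2451 in Col-0 control plants. It was lower in siz1-3 by -0.37 ± 0.11 after dehydration and by -0.44 ± 0.11 in control plants (adjusted p = 0.0175 and 0.0116). The call after dehydration ended without siz1-3 dehydrated replicate 2 or 3 or Col-0 dehydrated replicate 2 (adjusted p = 0.0585, 0.0762 and 0.0549) and after subtraction of array medians (0.0843). With that subtraction AT2G43640 was called higher in dehydrated siz1-3 (0.43, adjusted p = 0.0484). The next gene out, AT2G43550, differed more, at 813 ± 22.3 in dehydrated siz1-3 and 3988 ± 535 in dehydrated Col-0, a log2 difference of -2.26 ± 0.18 (adjusted p = 1.45e-06).

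With dehydration, 3 of the 7 rose and 4 fell in siz1-3, and 2 rose and 1 fell in Col-0. Of all probe sets, 15.3% rose and 31.8% fell in siz1-3, and 13.5% rose and 23.5% fell in Col-0. AT2G43530 rose in both genotypes, by 0.96 ± 0.15 in siz1-3 and 0.77 ± 0.15 in Col-0 (adjusted p = 0.00021 and 0.00153), as did AT2G43540 by 0.50 ± 0.15 and 0.44 ± 0.15 (adjusted p = 0.0132 and 0.0323). The AT2G43540 calls ended without siz1-3 control replicate 2 (adjusted p = 0.0554) in siz1-3, and in Col-0 without dehydrated replicate 1 or 3 or control replicate 1 (0.129, 0.0672 and 0.137). AT2G43550 fell by -1.05 ± 0.18 in siz1-3 (adjusted p = 0.000301) and had a log2 change of 0.45 ± 0.18 in Col-0 (adjusted p = 0.0636). AT2G43535 fell by -0.62 ± 0.18 in siz1-3 (adjusted p = 0.0147) and had a change of 0.37 ± 0.18 in Col-0 (adjusted p = 0.147). The siz1-3 call ended without dehydrated replicate 3 or control replicate 2 (adjusted p = 0.0513 and 0.0669). AT2G43560 fell by -0.33 ± 0.11 and -0.39 ± 0.11 (adjusted p = 0.0226 and 0.0104), calls that ended after subtraction of array medians, where the value in siz1-3 was 0.02. The siz1-3 call also ended without dehydrated replicate 2 or 3 or control replicate 2 (adjusted p = 0.0679, 0.0929 and 0.0683). On the far side of the run, AT2G43630 fell by -0.45 ± 0.10 and AT2G43640 rose by 0.72 ± 0.15 in siz1-3 (adjusted p = 0.00292 and 0.00141). After subtraction of array medians the calls of AT2G43535 and AT2G43630 in siz1-3 ended (adjusted p = 0.253 and 0.418), so 1 of the 7 fell there, and 5 rose and 0 fell in Col-0. Without that subtraction, the changes in Col-0 were -0.17 ± 0.10 for AT2G43630 and 0.26 ± 0.15 for AT2G43640 (adjusted p = 0.249 and 0.207).

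**Figure D3:**
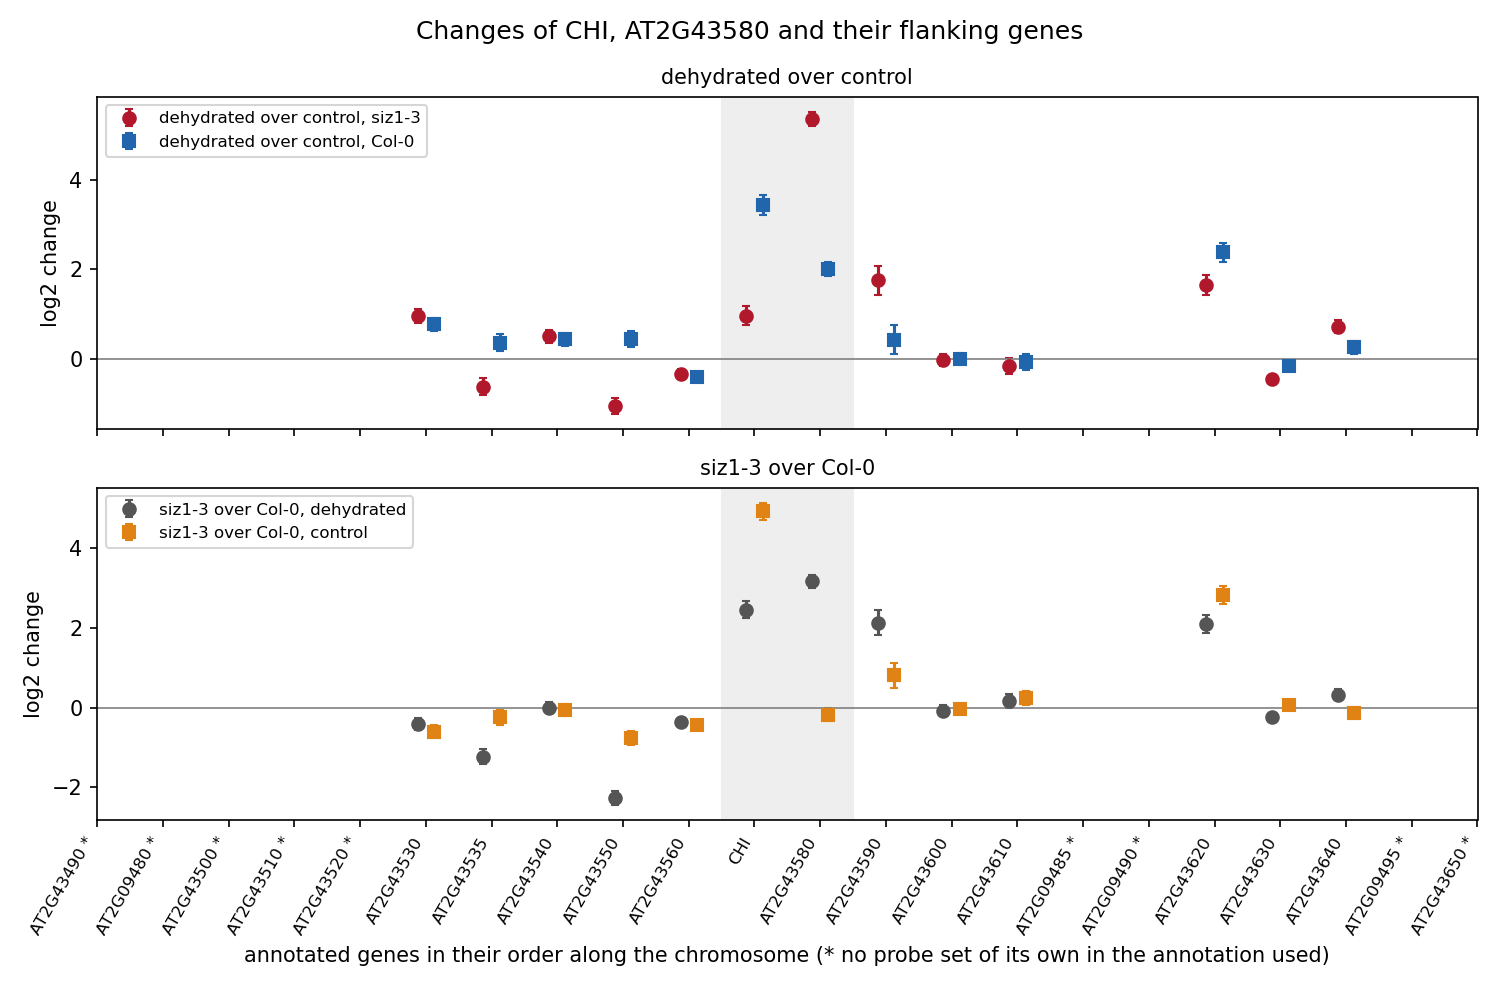
Log2 change (points) with its standard error (bars) of CHI, AT2G43580 (shaded) and the flanking genes, placed by their order on the chromosome and not by distance; the upper panel shows dehydrated over control plants in each genotype and the lower one siz1-3 over Col-0 in each condition. AT2G43580 is the highest point of the upper panel at 5.36 and CHI of the lower one at 4.92, and AT2G43550 is the lowest point of the lower panel at -2.26.

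Genes whose levels followed each member most closely were found by the root mean square difference of log2 values over the 12 arrays, after each probe set had been centred on its own mean, against 13512 other probe sets of a single gene. Those most like CHI were AT4G39670 (0.59), AT1G57630 (0.65), AT2G43620 (0.77), AT1G72240 (0.80) and AT1G21520 (0.84), so the third is a chitinase of the same run. AT4G39670 averaged 4373 ± 204 in dehydrated siz1-3, 1060 ± 149 in siz1-3 control, 760 ± 35.2 in dehydrated Col-0 and 65.9 ± 30.0 in Col-0 control plants. Those most like AT2G43580 were AT1G76470 (0.40), AT2G15780 (0.54), AT3G04010 (0.55), AT4G38410 (0.56) and AT1G07590 (0.60). AT1G76470 averaged 1340 ± 85.0 in dehydrated siz1-3 and 19.4 ± 7.51 in siz1-3 control plants, and 115 ± 68.9 and 22.0 ± 6.61 in dehydrated and control Col-0. The members themselves differed from each other by 1.99 on this measure, which put AT2G43580 at place 907 from CHI and CHI at place 1626 from AT2G43580. These are descriptions over 4 groups of arrays, and the gene tables used here give the listed genes only locus codes.

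**Figure D4:**
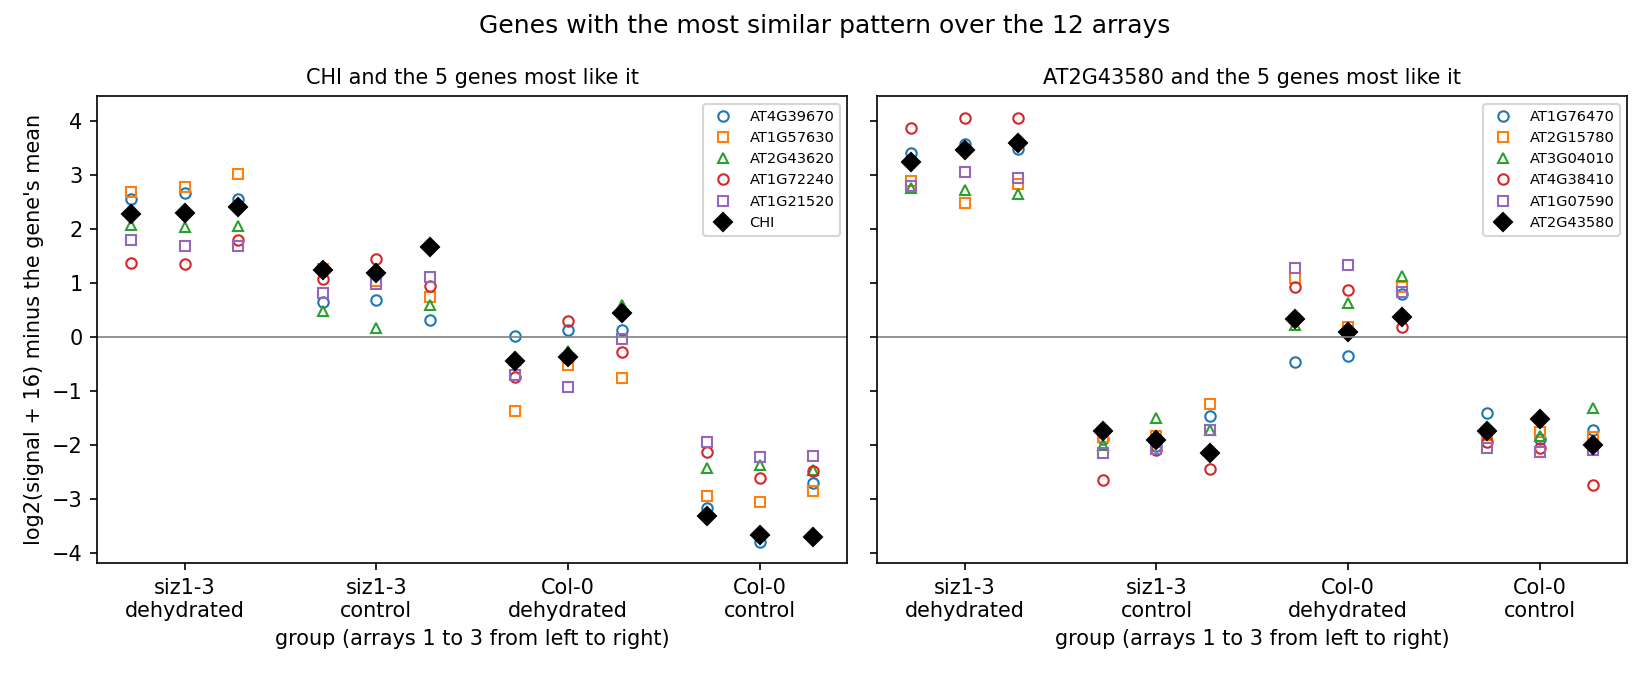
Log2 of the signal plus 16, minus each gene's mean over the 12 arrays, for CHI with the 5 genes most like it (left) and AT2G43580 with its 5 (right), array by array in the 4 groups. The genes on the left are above their mean in siz1-3 control plants, and those on the right are below it in both control groups.

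Other parts of chitin breakdown and sensing were thinly covered by the annotation used. Listed genes without a probe set of their own in it were not analysed, whether or not the arrays probe them. Of 10 listed GH18 chitinase genes 5 were measured, and ChiC, a class V chitinase, was the 1 that passed. It did so in 2 comparisons in which 15.3% and 12.4% of all probe sets were called higher, so 1 of 5 is near the background. ChiC read 152, 156 and 153 in dehydrated siz1-3, 68.2, 69.5 and 86.1 in siz1-3 control plants, 58.8, 39.7 and 83.5 in dehydrated Col-0 and 38.0, 58.4 and 71.2 in Col-0 control plants. It rose with dehydration in siz1-3 by 0.91 ± 0.21 (limma, adjusted p = 0.00292) and was higher in siz1-3 than in Col-0 after dehydration by 1.19 ± 0.21 (adjusted p = 0.000901). In Col-0 its dehydration change was 0.08 ± 0.21 (adjusted p = 0.813), and the interaction value of 0.83 ± 0.30 did not pass (adjusted p = 0.108). It passed without dehydrated Col-0 replicate 3 (adjusted p = 0.0368), with a pseudocount of 64 (0.0413) and over the upper 60% of probe sets (0.0465). The other 4, AT4G19720, AT4G19730, AT4G19740 and AT4G19820, read 28.8 or less on every array. Of 11 genes of chitin perception 2 were measured. BIK1, a receptor-like cytoplasmic kinase, was higher in dehydrated siz1-3 than in dehydrated Col-0 by 1.19 ± 0.14 (adjusted p = 5.02e-05), in a comparison where 12.4% of all probe sets were called higher. AT5G18610 did not pass there (adjusted p = 0.169), but did with quantile normalization (0.0407), in a fit of those groups alone (0.016) and without siz1-3 control replicate 3 (0.0128). Its dehydration change in siz1-3, 0.61 ± 0.25 (adjusted p = 0.0646), was 0.99 without that array (0.00017), and also passed with quantile normalization (0.00635) and with array medians subtracted (0.0076). AT5G18610 read 30.3 to 38.9 in dehydrated siz1-3 and 8.16 to 41.3 in siz1-3 control plants. In Col-0 it read 20.3 to 21.8 after dehydration and 11.2 to 19.1 under control conditions. Most of these signals were under 32 and could be background.

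Of 27 listed genes of salicylic acid defence 3 were measured, and the others were not analysed. Each of the 3 was higher in dehydrated siz1-3 than in dehydrated Col-0, where 12.4% of all probe sets were called higher. WRKY53, a transcription factor gene, differed by 2.74 ± 0.19, SAG101, a gene of immune receptor signalling, by 1.83 ± 0.12, and the glutaredoxin gene GRX480 by 0.97 ± 0.15 (limma, adjusted p = 5.83e-07, 3.32e-07 and 0.000408). SAG101 read 25.6 to 30.5 in dehydrated Col-0, signals under 32 that could be background. Under control conditions WRKY53 and SAG101 were also higher in siz1-3 (1.79 ± 0.19 and 1.04 ± 0.12, adjusted p = 2.72e-05 and 4.43e-05; 8.90% of all probe sets were called higher), while GRX480 did not pass (0.34 ± 0.15, adjusted p = 0.158), though it did without siz1-3 control replicate 1 (0.0293). GRX480 rose with dehydration in both genotypes, by 2.61 ± 0.15 in siz1-3 and 1.99 ± 0.15 in Col-0 (adjusted p = 3.41e-08 and 4.66e-07). WRKY53 and SAG101 fell with dehydration in both genotypes, although the call of SAG101 in siz1-3 ended with quantile normalization and with subtraction of array medians (adjusted p = 0.0918 and 0.329). Of 11 listed jasmonate and ethylene defence genes 3 were measured, PDF1.2, PDF1.2b and THI2.1, and 0 passed in any comparison (limma; at an unadjusted p under 0.05, 1 was lower in siz1-3 than in Col-0 after dehydration and 1 in control plants). Some passed under alternatives. Without dehydrated Col-0 replicate 3, PDF1.2 and PDF1.2b fell with dehydration in Col-0 (-1.30 and -1.64, adjusted p = 0.0105 and 0.00466), and PDF1.2b was higher in dehydrated siz1-3 than in dehydrated Col-0 (1.13, adjusted p = 0.04) with an interaction value of 2.04 (adjusted p = 0.0301). THI2.1 was lower in siz1-3 over the upper 60% of probe sets (adjusted p = 0.0382 after dehydration and 0.032 in control plants), and without dehydrated Col-0 replicate 1 after dehydration (0.0448) or without dehydrated Col-0 replicate 3 in control plants (0.0176). Dehydrated Col-0 replicate 3, the array highest in CHI among its group, was also highest there in these 3, at 1246 for PDF1.2, against 125 and 184 on the other arrays, and at 436 for THI2.1, against 81.7 and 99.2. The part of this in the CHI level of that array was not tested.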

How the data were processed

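Per the labels' protocols, RNA was extracted with TriZOL and biotin-labelled by a MessageAmp kit. The deposited table holds an intensity per probe set on a linear scale for each of the 12 arrays. The software behind these values is not given in the sources. Of 22810 probe sets, 64 controls were left out and 22746 tested. A platform annotation table, updated through the TAIR10.1 gene table, pairs 13513 probe sets with 1 gene, 503 with several and does not list 8730. Where a gene has several, the brightest on average is named, except SIZ1. Probe sequences were not used, so cross-hybridisation among chitinase genes was not checked, and coordinates are left out, as the build behind the annotation is unknown.

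Log2 of the intensity plus 16 was fitted with 1 mean per group over all 12 arrays in limma 3.58.1 (R 4.3.3, lmFit and eBayes, 8 residual degrees of freedom), without further normalization, since the medians of the arrays lay within 0.353 log2 units of each other, under a limit of 0.5. Dehydration in each genotype, genotype in each condition and the interaction were compared, with Benjamini-Hochberg adjustment over all tested probe sets and calls under 0.05. The number of arrays limits the precision. The fit was also run on simulated data, and the outcome is not reported here. The pair, the gene lists (GH19, GH18, chitin perception, salicylic acid, jasmonate and ethylene, leaf, root, flower and seed, guard cell) and the tests were chosen with earlier results of these data known. Named are the pair, all measured GH19, GH18 and flanking genes, the 5 genes most like each member, and up to 4 of each other list. Same-numbered arrays of different groups deviated from their group means with correlations of -0.0443 to 0.0529, so the numbers were not taken to pair them. The actin control's ratio of 3' to 5' signal was 8.29 to 20.2, so its 5' signal was weak beside its 3' signal on every array. The ratio varied within groups, from 8.29 to 18.95 in siz1-3 control and from 8.89 to 15.5 in Col-0 control plants. Its part in the results was not tested. Alternatives were 2 scalings, a floor of 32, a pseudocount of 64, the upper 60% of probe sets, the arrays of the 2 groups alone, a replicate block and leaving out each array.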

Additional observations from a re-analysis of the deposited data

Results flagged for a closer look

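The dehydration response differed between siz1-3 and Col-0, by limma's interaction term, for the brighter SIZ1 probe set and for 6 tested genes of the gene lists and the flanking region. The 6 were 1 of the 8 other GH19 genes, 1 of 2 of chitin perception, 2 of 3 of salicylic acid defence and 2 of 7 flanking genes. The other lists had 0. Of all probe sets, 3.84% were called higher and 4.96% lower in that comparison. The 10 genes most like CHI or AT2G43580 were chosen by their values in these groups and are not counted. The interaction value, siz1-3 minus Col-0 on the log2 scale, was -1.50 for AT2G43550, a gene near CHI (adjusted p = 0.00318, from 0.000512 to 0.0111 over the alternatives). It was 0.79 for SAG101 (adjusted p = 0.0122, from 0.00354 to 0.0413), whose signals of 25.6 to 30.5 in dehydrated Col-0 could be background. The other 4 calls ended under several alternatives: -0.98 for AT2G43535 (adjusted p = 0.036, from 0.0116 to 0.0871), 0.73 for BIK1 (0.044, from 0.0168 to 0.102), 0.95 for WRKY53 (0.0462, from 0.0117 to 0.132) and -0.62 for AT4G01700 (0.0491, from 0.0172 to 0.135). The brighter SIZ1 probe set had -0.83 (0.0478, from 0.0175 to 0.152), a call that also ended under several alternatives. The dimmer SIZ1 probe set had 0.03 and was not called (adjusted p = 0.981). AT4G01700 is the GH19 chitinase gene among the 6.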

How the results depend on the processing

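No alternative turned the direction of a change of CHI or AT2G43580 that exceeded the spread between replicates. Subtraction of array medians gave 1.31 for CHI and 5.71 for AT2G43580 with dehydration in siz1-3, and 2.23 for AT2G43580 in Col-0. A pseudocount of 64 gave 4.54 for CHI between genotypes in control plants and -2.12 for its interaction. For AT2G43580 it gave 4.04 and 1.18 for dehydration in siz1-3 and Col-0, 2.80 between dehydrated genotypes and 2.87 for the interaction. The subtraction shifts the median log2 change of all probe sets by 0.34 for dehydration in siz1-3 and 0.21 in Col-0, and by 0.10 and -0.03 between genotypes after dehydration and in control plants.

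Among the other 8 GH19 genes, the 1 lowered by dehydration went to 0 with the floor of 32 in either genotype, and in siz1-3 after subtraction of array medians. For the interaction, 2 were called higher with a pseudocount of 64 and 1 over the upper 60% of probe sets, in place of 0. The 1 called lower went to 0 with subtraction of array medians, a pseudocount of 64 and the replicate block, and leaving out single arrays gave 0 to 1 higher and 0 to 1 lower. The replicate block called 0 interaction genes of that list, left the pair's log2 values as they were, and ended 8 calls among 190 results of other genes. AT2G43560 changed sign with dehydration in siz1-3, to 0.019, after subtraction of array medians. That subtraction moved the probe sets called higher and lower with dehydration to 6699 and 4107 in siz1-3, from 3482 and 7225, and to 4993 and 3506 in Col-0, from 3081 and 5348. It moved those called lower in the interaction to 637 from 1129 (670 to 751 without any one of siz1-3 dehydrated replicates 2 and 3 and Col-0 control replicate 1). Causes of these shifts were not tested. Signals under 32 limit what can be said of AT2G43580 in control plants.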
